A study of Mus musculus with 15 samples.

Results

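The 30 genes described here encode the enzymes that build cholesterol and fatty acids and the proteins that control those enzymes. They were listed by name as members of the SREBP (sterol regulatory element binding protein) pathway, by a rule that uses no measured value, although earlier results of these data were known when the list was made. All 30 were found among the 55573 genes of the count table, and all 30 passed the filter on low counts that left 16567 genes for testing. Raw counts of the 30 genes ran from at least 27 reads (Fdps) to at most 16163 reads (Scd2) in a sample.

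Sterol and fatty acid synthesis are controlled together by SREBP transcription factors, which lie in the endoplasmic reticulum membrane bound to the escort protein SCAP and, when sterols are plentiful, are held there by INSIG proteins. When sterols are low the complex moves to the Golgi, where proteases release the active part of the factor, and this part switches on the genes of the mevalonate route, the steps from squalene to cholesterol and the fatty acid route. In peripheral nerve and its ganglia, myelinating Schwann cells and other glia are known for a large need for these lipids, since myelin membrane is rich in cholesterol and long fatty acids.

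The samples were 15 right trigeminal ganglia (TG), which hold the cell bodies of the sensory nerves of the cornea, from 10-week-old male CD1 mice. In all 15 mice the centre of the right cornea had been marked with a 2 mm trephine and its epithelium and front stroma removed, followed by an antibiotic drop. Drops were then given 3 times a day for 12 days and held vehicle in 5 mice (replicates 1 to 5), Resolvin D6 (RvD6, labelled RvD6-standard) in 5 mice (replicates 6 to 10) or the RvD6 stereoisomer RvD6si (labelled RvD6-isomer) in 5 mice (replicates 11 to 15). The study purified RvD6si from pooled mouse tears and corneal culture medium, while RvD6 was a standard. No uninjured ganglion and no dose of the lipids in this experiment are given in the sources used here, so the comparisons below are between groups that were all injured, and whether the doses of both lipids matched is not known.

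The libraries held 4125962 to 9903396 counted reads, with a median of 7756538. All 7 sensory neuron markers, all 6 satellite glia markers and all 7 myelinating Schwann cell markers examined were detected. Markers of other tissues also moved with the groups. The summed normalized count of 7 bone marrow and blood markers was 11918 to 25254 in vehicle, 29806 to 57173 in RvD6 and 4962 to 59140 in RvD6si, where the highest value belonged to replicate 15, the library with the fewest reads. The 6 skeletal muscle markers summed to at most 1015 in vehicle and 191 in RvD6si but up to 16188 in RvD6, highest in replicate 9. All RvD6 samples thus held more marrow and blood counts than any vehicle sample, and the RvD6si samples other than replicate 15 reached at most 12687. The 5 pituitary markers varied within every group, at 62.0 to 26791 in vehicle, 1622 to 16451 in RvD6 and 145 to 4732 in RvD6si. Sums of the fibroblast, macrophage and satellite glia markers overlapped across the groups. Single markers differed, such as Col1a1 (log2 fold change 2.23, edgeR unadjusted p = 0.000250) and Cd68 (1.45, unadjusted p = 0.00186) under RvD6. In the same comparison Col1a2 was at 0.94 (edgeR unadjusted p = 0.000227) and Cx3cr1 at 0.90 (unadjusted p = 0.0405), while Dcn was at 0.04 and Csf1r at -0.40. Under RvD6si Glul was at -0.68 (edgeR unadjusted p = 0.00894) and Sox10 at 0.75 (unadjusted p = 0.0486). The Sox10 counts there had a median of 157 and a highest value of 519, against at most 180 in vehicle. Also under RvD6si, Aif1 was at -1.34 (unadjusted p = 0.00398), Cx3cr1 at 0.96 (unadjusted p = 0.0290) and Col1a1 at 1.04 (unadjusted p = 0.0455). Sensory neuron markers summed to 72481 to 80064 in vehicle, 45514 to 70988 in RvD6, below every vehicle sample, and 63865 to 82142 in RvD6si. These markers were not alike under RvD6, with log2 fold changes of -0.50 for Prph, -0.44 for Tubb3 and -0.36 for Nefl. Uchl1 was at -0.28, Snap25 at -0.27, Scn9a at -0.09 and Rbfox3 at 0.13 (edgeR unadjusted p = 0.617). Under RvD6si Rbfox3 was at 0.64 (unadjusted p = 0.0222). The Schwann cell sums overlapped across the groups, at 105929 to 165660, 93432 to 137662 and 97200 to 160804. Single Schwann cell markers did differ under RvD6si, where Prx was at 2424 to 3438 against 1417 to 2147 in vehicle (log2 fold change 0.83, edgeR unadjusted p = 0.00110), and Ncmap (-0.49, unadjusted p = 0.00343) and Mal (-0.35, unadjusted p = 0.0364) were lower. In these bulk samples fewer cells of a type and less RNA per cell cannot be told apart, and the part of these tissue markers in the results below was not tested, beyond the values given without the libraries concerned.

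The promoter is where SREBP acts, so the sequence in front of 4 of the genes is shown, taken from RefSeq on GRCm38.p6, 5′ to 3′ on the strand of the gene, ending at the base before the start of transcription. Hmgcs1 is shown because it had the smallest p-value of the 30 genes under RvD6si and Srebf1 as the regulator with the smallest p-value under RvD6si, Pmvk because it was lower under both lipids and Fasn because neither lipid separated it from vehicle. Capitals mark the letters TCACNCCAC (a form of the sterol regulatory element), CCAAT (the box bound by NF-Y, a factor known to work beside SREBP) and CACGTG (the E-box, which SREBP1 can also bind), read on either strand, so that CCAAT on the opposite strand appears as ATTGG. Of several annotated starts, the one farthest downstream is shown for Srebf1 and the one farthest upstream for Pmvk.
Hmgcs1, chr13:119690101-119690350, strand plus: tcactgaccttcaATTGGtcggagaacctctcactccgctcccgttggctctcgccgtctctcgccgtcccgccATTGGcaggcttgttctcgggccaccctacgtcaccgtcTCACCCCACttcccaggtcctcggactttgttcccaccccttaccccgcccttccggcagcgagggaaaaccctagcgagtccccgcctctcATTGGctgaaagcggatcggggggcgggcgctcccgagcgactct
Srebf1, chr11:60210472-60210721, strand minus: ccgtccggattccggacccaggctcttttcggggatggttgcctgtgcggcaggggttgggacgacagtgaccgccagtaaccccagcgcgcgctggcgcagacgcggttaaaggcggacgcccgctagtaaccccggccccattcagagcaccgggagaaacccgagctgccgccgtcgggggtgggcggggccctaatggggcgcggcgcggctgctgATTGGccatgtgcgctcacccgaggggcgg
Pmvk, chr3:89454291-89454540, strand plus: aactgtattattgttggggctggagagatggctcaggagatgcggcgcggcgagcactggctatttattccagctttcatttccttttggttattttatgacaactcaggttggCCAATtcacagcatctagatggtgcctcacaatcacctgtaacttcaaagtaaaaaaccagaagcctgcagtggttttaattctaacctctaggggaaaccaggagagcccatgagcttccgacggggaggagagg
Fasn, chr11:120824548-120824797, strand minus: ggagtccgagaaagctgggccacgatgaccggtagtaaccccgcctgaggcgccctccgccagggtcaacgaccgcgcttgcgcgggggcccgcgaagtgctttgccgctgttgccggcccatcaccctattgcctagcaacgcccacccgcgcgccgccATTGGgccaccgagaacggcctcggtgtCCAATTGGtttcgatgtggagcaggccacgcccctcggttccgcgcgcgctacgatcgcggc
Of these 4 sequences only that of Hmgcs1 held a sterol regulatory element in this form, at position -137 from the start, with CCAAT boxes on the opposite strand at positions -237, -176 and -45. Fasn held 3 CCAAT boxes, of which 2 overlapped in the run CCAATTGG, while the windows shown for Srebf1 and Pmvk held 1 each.

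Windows of 250 bases before to 50 bases after the start were given for 24 of the 30 genes and for 27025 genes in all. The window of at least 1 start held a CCAAT box in 21 of the 24 genes, or 87.5%, against 41.1% of all genes. The E-box was found in 5 of the 24 (20.8%, against 8.09% of all genes), namely Dhcr7, Hsd17b7, Insig1, Sc5d and Scap. The letters TCACNCCAC were found in Hmgcs1 alone of the 24, against 1.44% of all genes. These are matches of letters and were not measured as binding sites. The promoters of Fdps, Fdft1, Sqle, Stard4, Scd1 and Scd2 were not used here.

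Levels per length in the vehicle ganglia, given as TPM (counts corrected for gene length and library depth), placed the fatty acid desaturase Scd2 first, at 441 ± 134 TPM (SD, n = 5). Pmvk (175 ± 20.3 TPM), Fdft1 (163 ± 15.9 TPM), Hmgcs1 (162 ± 35.8 TPM) and Scd1 (138 ± 45.7 TPM) followed and did not differ from each other beyond their spread. Below a gap came Nsdhl at 73.1 ± 9.03 TPM, and from there each gene lay within the spread of its neighbour in the order, down to Fdps (4.75 ± 0.394 TPM) and Acaca (4.15 ± 1.45 TPM). Near-identical copies cover 91.4% of the Fdps transcript and 64.3% of the Acaca transcript, and reads placed in several genes were not counted, so the place of both at the end of the order is uncertain. The transcription factors themselves were low, with Srebf1 at 12.5 ± 3.36 TPM and Srebf2 at 9.85 ± 2.55 TPM. The 30 genes together took 0.305% to 0.504% of the reads of a library, with the highest share in RvD6si replicate 11.

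**Figure D1:**
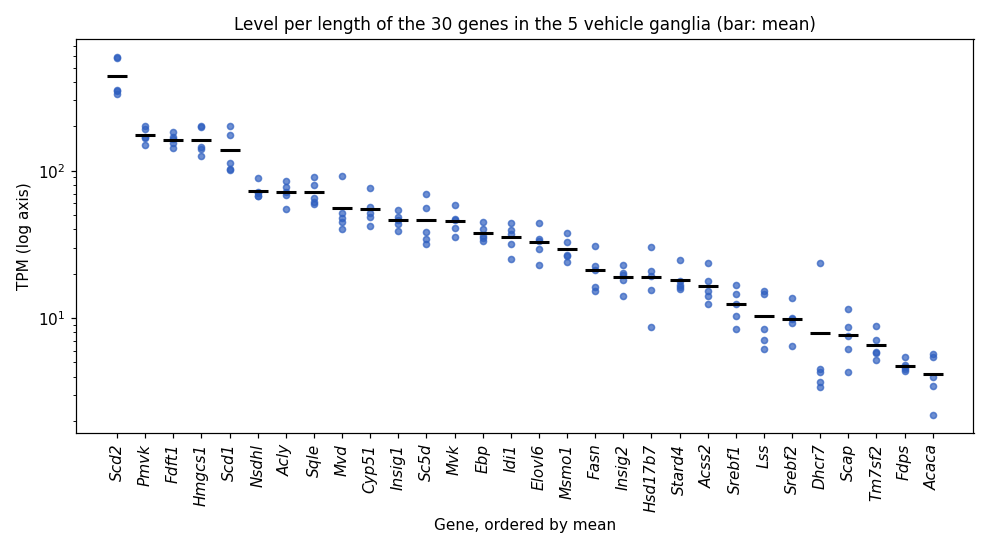
Level of each of the 30 genes in the vehicle ganglia in TPM (log axis), genes ordered by their mean. Points are the 5 samples and bars the means, and Scd2 stands above all others at a mean of 441 TPM.

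None of the 30 genes passed an adjusted p of 0.05 in edgeR in any of the comparisons, so their differences are given as values with intervals and not as changes. Under RvD6si against vehicle the count was 0 of 30, where 0.670% of all genes tested passed (111 of 16567). Under RvD6 against vehicle it was 0 of 30, where 0% of all genes passed, and between RvD6si and RvD6 it was 0 of 30, where 0.235% passed. At an unadjusted p below 0.05, RvD6si was higher than vehicle in 6 genes (Srebf1, Srebf2, Hmgcs1, Msmo1, Dhcr7 and Acly), where 8.69% of all genes were higher, and lower in 1 (Pmvk), where 7.30% of all genes were lower. RvD6 was higher in 2 (Srebf1 and Srebf2), where 7.63% of all genes were higher, and lower in 4 (Mvk, Pmvk, Fdft1 and Ebp), where 5.99% of all genes were lower. DESeq2 at an adjusted p of 0.05 called 4 of the 30 under RvD6si (Srebf1, Hmgcs1, Msmo1 higher and Pmvk lower), where it called 8.13% of the genes it adjusted, and none under RvD6, where it called 1.92%.

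Most of the 30 genes had a value above vehicle under RvD6si. The log2 fold change was above 0 in 23 of 30 (76.7%, against 51.2% of all genes) and its median was 0.22, against 0.02 over all genes. Under RvD6 it was above 0 in 17 of 30 (56.7%, against 52.2% of all genes), with a median of 0.08 against 0.02 over all genes. Both comparisons use the same vehicle samples. Without RvD6si replicate 15 the RvD6si median was 0.30, with 6 genes higher and 1 lower, and without RvD6 replicates 8 and 9, which held most of the muscle counts, the RvD6 median was 0.01 with 1 gene higher and 3 lower. The RvD6 median also ran from 0.03 without vehicle replicate 3 to 0.20 without vehicle replicate 2, where 4 genes were higher and 4 lower, and was 0.02 when the length trend was taken out. Single libraries also moved the counts, since RvD6si gave 3 higher and 1 lower without RvD6si replicate 11, and RvD6 gave 3 in all without vehicle replicate 3, vehicle replicate 5, RvD6 replicate 7 or RvD6 replicate 9. Without RvD6 replicate 9, edgeR called Hmgcs1 (adjusted p = 0.0432) and Msmo1 (adjusted p = 0.0408) under RvD6si. Over the whole table it then called 229 genes, against 111 with all samples.

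**Figure D2:**
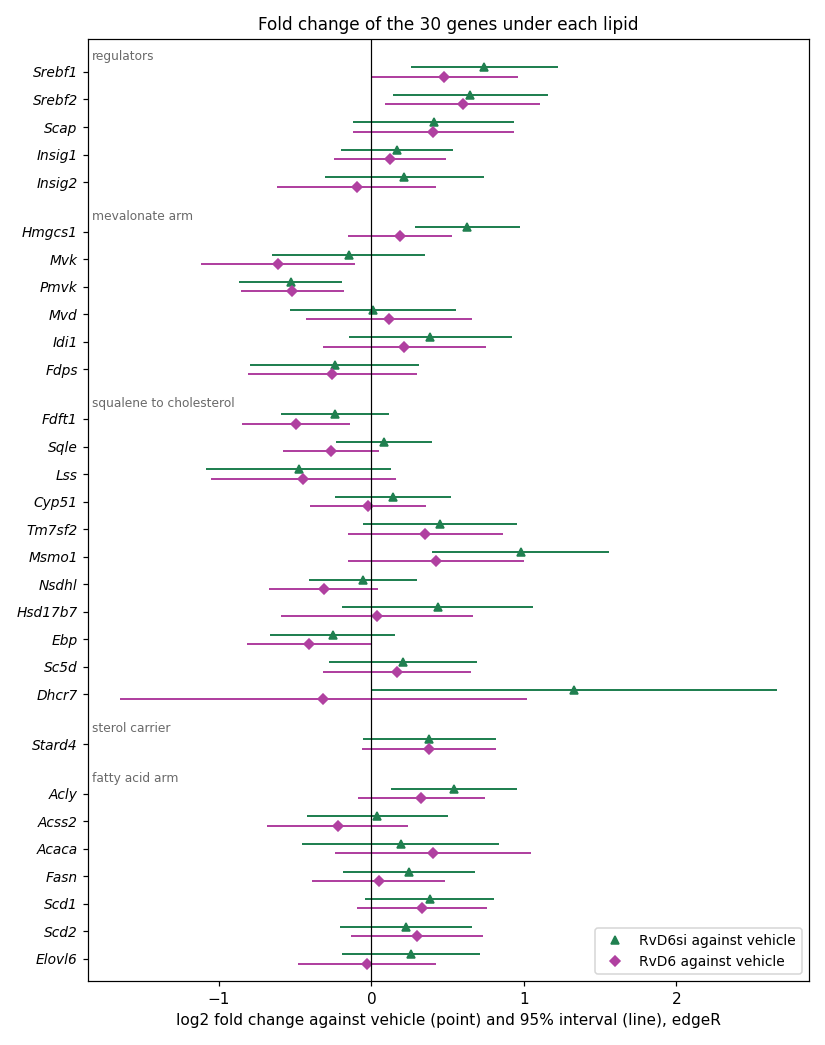
Log2 fold change of the 30 genes against vehicle under RvD6si (green triangles) and RvD6 (purple diamonds), with 95% intervals from edgeR, genes grouped by role. Both lipids share the 5 vehicle samples. The intervals of Srebf1, Srebf2, Hmgcs1, Msmo1, Dhcr7 and Acly lie above 0 and that of Pmvk below 0 under RvD6si.

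Among the regulators, all 5 had a positive log2 fold change under RvD6si and 4 of 5 under RvD6, and the transcription factor genes stood highest. Srebf1 (chr11:60199089-60222581, minus strand), whose SREBP1 products mainly drive fatty acid synthesis, had normalized counts of 170.2, 278, 157, 257 and 219 in the vehicle samples, 219.6, 333, 272, 414 and 283 in the RvD6 samples and 412, 300.3, 330.4, 515 and 251.9 in the RvD6si samples. The groups overlapped, but 4 of 5 RvD6si samples lay above every vehicle sample. Its log2 fold change was 0.74 ± 0.23 (SE) under RvD6si (edgeR adjusted p = 0.113, DESeq2 adjusted p = 0.0264) and 0.48 ± 0.23 under RvD6 (edgeR adjusted p = 0.365).

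Srebf2 (chr15:82147181-82205379, plus strand), whose product mainly drives the cholesterol genes, had normalized counts of 213, 286, 154, 220.4 and 209.7 in the vehicle samples, 214, 345, 276, 507 and 316 in the RvD6 samples and 486, 352, 235, 263 and 372 in the RvD6si samples. In each lipid group 3 of 5 samples lay above all vehicle samples. The log2 fold changes were 0.65 ± 0.24 under RvD6si (edgeR adjusted p = 0.189) and 0.60 ± 0.24 under RvD6 (edgeR adjusted p = 0.295), and the latter was 0.39 without RvD6 replicate 9, the highest sample. Scap, the escort that carries SREBP to the Golgi, was at 0.41 for RvD6si and for RvD6 alike, with intervals from -0.11 to 0.93.

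Insig1, itself a classical SREBP target that retains the complex in the endoplasmic reticulum, had normalized counts of 441, 391, 476, 525 and 378 in the vehicle samples, 395, 374, 544, 429 and 685 in the RvD6 samples and 507, 439, 529, 558 and 462 in the RvD6si samples. The 3 groups covered much the same range. Its log2 fold change was 0.17 (95% interval -0.19 to 0.53) under RvD6si and 0.12 (-0.24 to 0.48) under RvD6. Insig2, its less sterol-dependent relative, was at 0.21 and -0.10.

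In the mevalonate arm the enzymes went different ways, with 3 of 6 above 0 under each lipid. Hmgcs1 (chr13:119690379-119708260, plus strand), the cytosolic synthase that makes HMG-CoA and whose promoter held the sterol regulatory element shown above, had normalized counts of 2745, 2673, 1915, 2019 and 2078 in the vehicle samples, 2062, 2423, 2146, 3446 and 3059 in the RvD6 samples and 4325, 3016, 3609, 3531 and 3246 in the RvD6si samples. Every RvD6si sample lay above every vehicle sample, and only RvD6 replicates 9 and 10 did so in the RvD6 group. The lack of overlap between RvD6si and vehicle fixes the two-sided exact permutation p at 0.00794, the smallest that 5 against 5 samples allow. The log2 fold change was 0.63 ± 0.16 under RvD6si, a 1.55-fold difference (edgeR adjusted p = 0.0688, DESeq2 adjusted p = 0.00607). Under RvD6 it was 0.19 ± 0.16 (edgeR adjusted p = 0.648), and 0.06 without RvD6 replicate 9.

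The next kinases of the route were level or lower. Mvk, mevalonate kinase, had normalized counts of 366, 279, 420.5, 342 and 492 in the vehicle samples, 323, 160.4, 296, 231 and 243 in the RvD6 samples and 278, 239, 383, 533 and 283 in the RvD6si samples. In the RvD6 group 3 of 5 samples lay below all vehicle samples, while the RvD6si values spread across the vehicle range and beyond it on both sides. RvD6 gave a log2 fold change of -0.61 ± 0.24 (edgeR adjusted p = 0.279) and -0.15 ± 0.24 under RvD6si (edgeR adjusted p = 0.813).

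Pmvk (chr3:89454541-89469013, plus strand), phosphomevalonate kinase, had normalized counts of 753, 960.0, 957, 898 and 1073 in the vehicle samples, 772, 698, 747, 486 and 567 in the RvD6 samples and 543, 799.5, 555, 636 and 696 in the RvD6si samples. In each lipid group 4 of 5 samples lay below the lowest vehicle sample. The log2 fold changes were -0.53 ± 0.16 under RvD6si (edgeR adjusted p = 0.106, DESeq2 adjusted p = 0.0229) and -0.52 ± 0.16 under RvD6 (edgeR adjusted p = 0.183, DESeq2 adjusted p = 0.0704), the closest match between the lipids of any gene with an unadjusted p below 0.05 in both. Mvd, the decarboxylase that follows, was at 0.01 and 0.11, Idi1, the isomerase, at 0.39 and 0.22, and Fdps, farnesyl diphosphate synthase, at -0.24 and -0.26 under RvD6si and RvD6 on the log2 scale, with intervals that all include 0. Fdps values are uncertain, since 91.4% of its transcript has near-identical copies elsewhere and reads with several places were not counted.

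**Figure D3:**
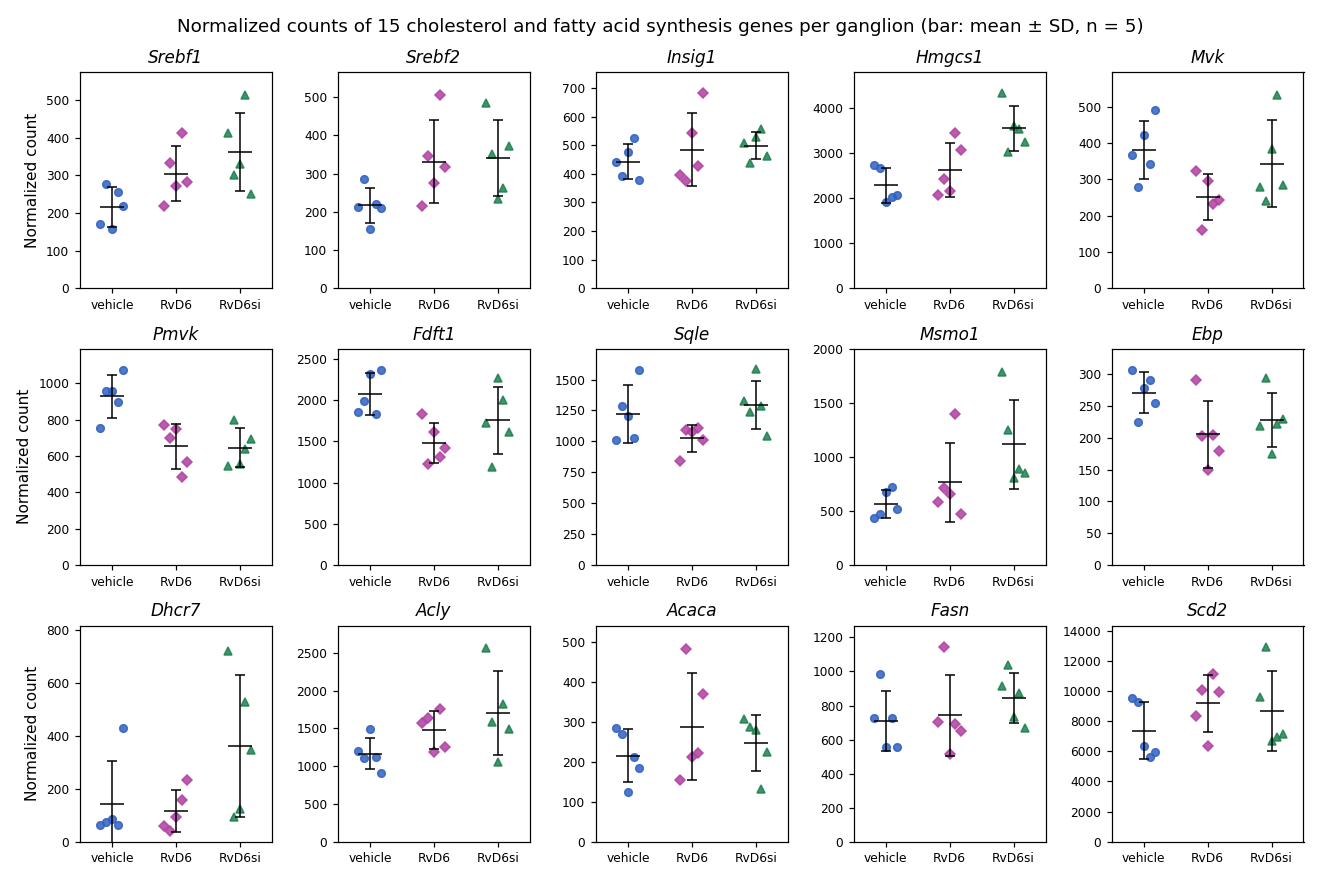
Normalized counts of 15 of the genes in each ganglion, with vehicle as circles, RvD6 as diamonds and RvD6si as triangles, and bars for mean ± SD (n = 5; the lower bar of Dhcr7 in vehicle runs past 0). For Hmgcs1 and Msmo1 all RvD6si samples stand above all vehicle samples, and for Dhcr7 the groups are split within themselves.

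From squalene to cholesterol, 7 of 11 genes were above 0 under RvD6si and 4 of 11 under RvD6, with medians of 0.14 and -0.27. Fdft1, squalene synthase, had normalized counts of 1858, 1991, 2321, 1829 and 2374 in the vehicle samples, 1840.0, 1223, 1613, 1310.1 and 1426 in the RvD6 samples and 1720.0, 1193, 2270.1, 2001 and 1616 in the RvD6si samples. Under RvD6 4 of 5 samples lay below all vehicle samples, and under RvD6si 3 of 5 did. RvD6 stood at -0.50 ± 0.17 on the log2 scale (edgeR adjusted p = 0.210) and RvD6si at -0.24 ± 0.17 (edgeR adjusted p = 0.508), with 54.7% of the transcript near-identical to other genes, mainly Gm6781.

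Sqle, squalene epoxidase and a rate-controlling step, had normalized counts of 1008, 1289, 1204, 1023 and 1581 in the vehicle samples, 843, 1093, 1075, 1109 and 1012 in the RvD6 samples and 1327, 1237, 1583, 1283 and 1045 in the RvD6si samples. RvD6si samples covered the vehicle range, and the RvD6 samples lay in its lower part or below. Its log2 fold change was 0.08 (95% interval -0.23 to 0.39) under RvD6si and -0.27 (-0.57 to 0.04) under RvD6.

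Msmo1 (chr8:64718139-64733792, minus strand), the sterol-C4-methyl oxidase, showed the second non-overlapping set. Its normalized counts were 436, 475, 673, 722 and 516 in the vehicle samples, 581, 716, 657, 1397 and 473 in the RvD6 samples and 1787, 1248, 809, 891 and 852 in the RvD6si samples. All RvD6si samples stood above all vehicle samples, and RvD6 did so in replicate 9 alone, which lay far from the other RvD6 samples. The log2 fold change was 0.98 ± 0.27 under RvD6si, a 1.97-fold difference (edgeR adjusted p = 0.0915, DESeq2 adjusted p = 0.0119, two-sided exact permutation p = 0.00794, again fixed by the lack of overlap). Under RvD6 it was 0.42 ± 0.27 (edgeR adjusted p = 0.522) and 0.08 without replicate 9. Thus 2 of the 30 genes did not overlap between RvD6si and vehicle, where 4.88% of all genes did not, and none between RvD6 and vehicle, where 3.72% did not. The two-sided exact permutation p, unadjusted, was 0.0159 for Pmvk, 0.0238 for Srebf1 and 0.0397 for Srebf2 under RvD6si. It was 0.0714 for Acly and 0.167 for Dhcr7, the other genes there with an edgeR unadjusted p below 0.05. Stard4 had an exact p of 0.0397 under RvD6si, with an edgeR unadjusted p of 0.0803. Under RvD6 the exact p was 0.0159 for Pmvk and Fdft1, 0.0238 for Mvk and 0.0317 for Nsdhl. For Srebf1, Srebf2 and Ebp it was 0.0556 under RvD6.

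Ebp, the sterol isomerase, had normalized counts of 307, 225, 278, 290.3 and 254 in the vehicle samples, 291, 203, 149.9, 205 and 179 in the RvD6 samples and 218, 295, 175, 222 and 229 in the RvD6si samples. Under RvD6 4 of 5 samples lay below all vehicle samples, with replicate 6 inside the vehicle range. Against vehicle the log2 value was -0.41 ± 0.19 under RvD6 (edgeR adjusted p = 0.361) and -0.25 ± 0.19 under RvD6si (edgeR adjusted p = 0.551).

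Dhcr7 (chr7:143823145-143848410, plus strand), the reductase of the last step to cholesterol, was the most uneven gene. Its normalized counts were 63.4, 73.0, 87.5, 62.0 and 429 in the vehicle samples, 61.0, 39.7, 92.5, 157 and 232 in the RvD6 samples and 718, 94.3, 122, 528 and 346 in the RvD6si samples. High and low samples occurred in every group, and the vehicle group held a single high sample, replicate 5. The log2 fold change was 1.33 (95% interval 0.00 to 2.65) under RvD6si (edgeR adjusted p = 0.311) and -0.31 (-1.64 to 1.01) under RvD6 (edgeR adjusted p = 0.875). Without vehicle replicate 5 these became 2.34 and 0.68, so the sign of the RvD6 value rests on that sample.

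The other genes of this stretch did not reach an edgeR unadjusted p of 0.05 in any comparison. Their log2 fold changes under RvD6si and RvD6 were -0.48 and -0.45 for Lss (lanosterol synthase), 0.14 and -0.02 for Cyp51 (lanosterol demethylase), 0.45 and 0.35 for Tm7sf2 (a sterol reductase), -0.06 and -0.31 for Nsdhl (a C4-demethylation enzyme), 0.44 and 0.04 for Hsd17b7 (a ketoreductase of the same complex) and 0.21 and 0.17 for Sc5d (a sterol desaturase). Lss lay farthest below vehicle of these 11 genes under RvD6si, with an interval of -1.08 to 0.13. Stard4, a cytosolic sterol carrier, stood 0.38 above vehicle on the log2 scale with either lipid (95% interval -0.05 to 0.81 in both).

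In the fatty acid arm all 7 genes had a log2 fold change above 0 under RvD6si, from 0.04 (Acss2, acetyl-CoA synthetase) to 0.54 (Acly), and 5 of 7 under RvD6. Acly (chr11:100476353-100528000, minus strand), the citrate lyase that supplies cytosolic acetyl-CoA, had normalized counts of 1198, 1102, 1494, 1125 and 916 in the vehicle samples, 1566, 1642, 1187, 1753 and 1250.3 in the RvD6 samples and 2566, 1587, 1054, 1828 and 1495 in the RvD6si samples. In the RvD6si group 4 of 5 samples and in the RvD6 group 3 of 5 lay above all vehicle samples. On the log2 scale Acly differed from vehicle by 0.54 ± 0.19 under RvD6si (edgeR adjusted p = 0.178) and 0.33 ± 0.19 under RvD6 (edgeR adjusted p = 0.483), and without RvD6si replicate 11, the highest sample, the former was 0.35.

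Acaca, acetyl-CoA carboxylase and the committed step, had normalized counts of 286, 271, 124, 213 and 184 in the vehicle samples, 155, 484, 213, 222 and 369 in the RvD6 samples and 308, 288, 281, 133 and 226 in the RvD6si samples. The groups overlapped, with RvD6 replicate 7 highest. Acaca had a log2 fold change of 0.19 (95% interval -0.45 to 0.83) under RvD6si and 0.40 (-0.24 to 1.04) under RvD6, and 0.14 under RvD6 without that sample. The gene Gm5182 matches 64.3% of the Acaca transcript, so its counts are uncertain.

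Fasn, fatty acid synthase, had normalized counts of 727, 985, 556, 728 and 556 in the vehicle samples, 706, 1144, 517, 694 and 649 in the RvD6 samples and 917, 1037, 733, 876 and 668 in the RvD6si samples. The 3 groups shared most of their range. Its log2 fold change was 0.25 (95% interval -0.18 to 0.67) under RvD6si and 0.05 (-0.38 to 0.47) under RvD6, where the sign turned without RvD6 replicate 7 (-0.16), without vehicle replicate 3 or 5, and when the length trend was taken out (-0.12).

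Scd2, the stearoyl-CoA desaturase of nervous tissue and the most abundant of the 30 genes, had normalized counts of 9568, 9297, 6381, 5644 and 5954 in the vehicle samples, 8364, 10075, 6331, 11152 and 9952 in the RvD6 samples and 9617, 12910.1, 6703, 6919 and 7162 in the RvD6si samples. Vehicle replicates 1 and 2 lay inside the range of both treated groups, and the groups overlapped. Scd2 had a log2 fold change of 0.23 (95% interval -0.20 to 0.65) under RvD6si and 0.30 (-0.12 to 0.73) under RvD6. Its relative Scd1 was at 0.38 and 0.33, and Elovl6, which lengthens palmitate, at 0.26 and -0.03. Summed counts of 7 adipocyte markers, of a cell type that also uses this arm, were 0 to 39.4 in vehicle, 56.0 to 157 in RvD6, above every vehicle sample, and 0 to 183 in RvD6si. Among these markers Fabp4 had log2 fold changes of 2.65 under RvD6 (edgeR unadjusted p = 0.0122) and 1.87 under RvD6si (unadjusted p = 0.0622), and Adipoq was at 2.23 under RvD6 (unadjusted p = 0.168), while Lep was at 0 in all 15 samples. The part of these low counts in the fatty acid arm was not tested.

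The lipids were then compared with each other, in 1 comparison of 2 stereoisomers at the same time point over the 30 genes. RvD6si was the higher in 25 of 30 genes (83.3%, against 49.5% of all genes), with a median log2 difference of 0.17 against -0.00 over all genes. In the steps from squalene to cholesterol 10 of 11 differences were above 0, with a median of 0.26. At an unadjusted p below 0.05, 3 genes were higher under RvD6si, where 4.18% of all genes were higher, and none was lower, where 4.64% of all genes were lower. DESeq2 called none of the 30, where it called 0.936% of the genes it adjusted, and no gene had groups that did not overlap, where 1.74% of all genes had.

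The 3 genes were Hmgcs1, Sqle and Dhcr7. For Hmgcs1 the difference was 0.44 ± 0.16 on the log2 scale (95% interval 0.11 to 0.78, edgeR adjusted p = 0.387), with 3 of 5 RvD6si samples above all RvD6 samples. For Sqle it was 0.35 ± 0.15 (0.04 to 0.66, edgeR adjusted p = 0.496), with 4 of 5 above. For Dhcr7 it was 1.64 ± 0.64 (0.30 to 2.99, edgeR adjusted p = 0.442), with 3 of 5 above. Msmo1 (0.56, -0.02 to 1.13) and Mvk (0.46, -0.04 to 0.97) came next among the named genes, and single libraries moved both. The Msmo1 difference was 0.89 without RvD6 replicate 9 and 0.33 without RvD6si replicate 11, and that of Mvk was 0.25 without RvD6si replicate 14.

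For the other 27 genes the 95% interval of the difference included 0, which does not show that the lipids act alike. The median interval reached 0.47 to either side of its difference on the log2 scale, and for 27 of the 30 genes it lay within 1 on either side of 0. The differences nearest 0 were those of Scap (0.00, -0.52 to 0.52), Stard4 (0.00, -0.43 to 0.43), Pmvk (-0.01, -0.34 to 0.32) and Fdps (0.02, -0.53 to 0.57). Without RvD6si replicate 15 the median difference was 0.24 with 4 genes higher, without RvD6 replicates 8 and 9 it was 0.22 with 4 higher, and without RvD6si replicate 11 it was 0.10 with 3 higher. The count was 5 without RvD6si replicate 12.

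**Figure D4:**
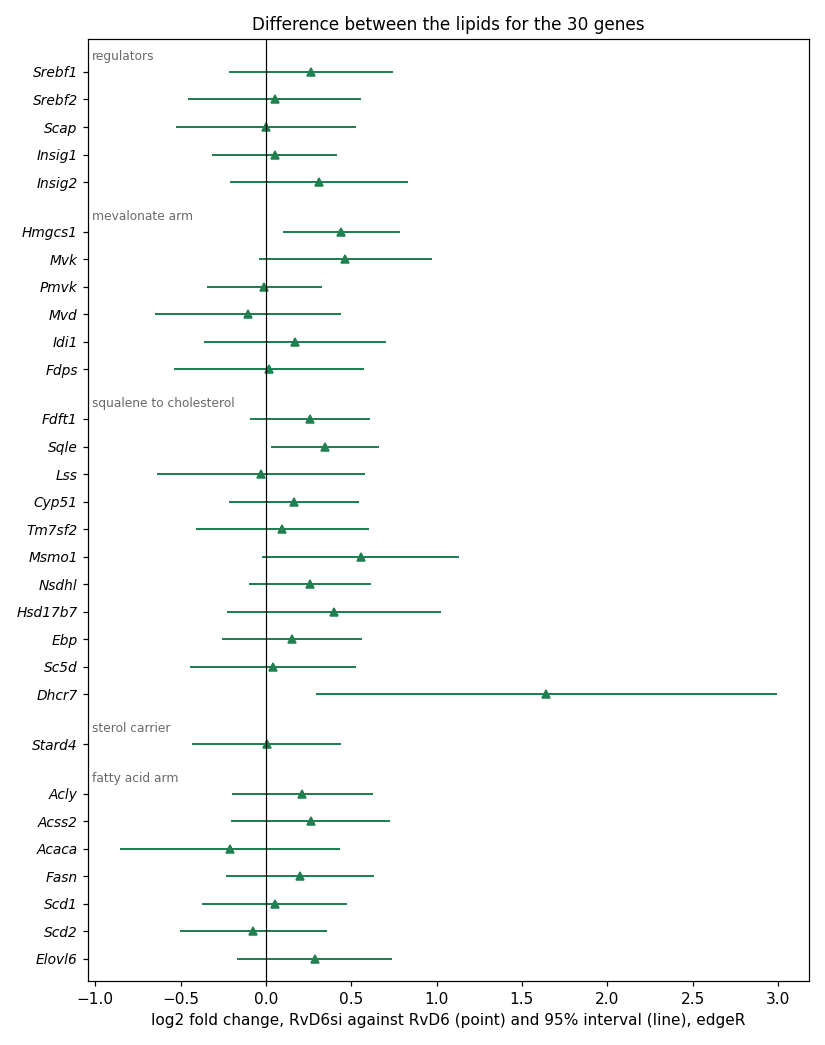
Log2 difference between RvD6si and RvD6 for the 30 genes, with 95% intervals from edgeR, genes grouped by role. The intervals of Hmgcs1, Sqle and Dhcr7 lie above 0 and the other 27 include 0.

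In single ganglia, the median over the 30 genes of the log2 deviation from the vehicle mean ran from -0.10 to 0.22 in vehicle, from -0.22 to 0.29 in RvD6 and from -0.01 to 0.35 in RvD6si, so the groups overlapped. Within the RvD6si group replicate 15, the shallow library with high blood markers, was the lowest at -0.01, and the other 4 lay between 0.15 and 0.35. Between 10 and 19 of the genes lay above the vehicle mean in a vehicle ganglion, between 13 and 20 in an RvD6 ganglion and between 14 and 25 in an RvD6si ganglion. Replicate 11 of RvD6si held the highest values of Srebf2, Hmgcs1, Msmo1, Dhcr7 and Acly in its group.

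**Figure D5:**
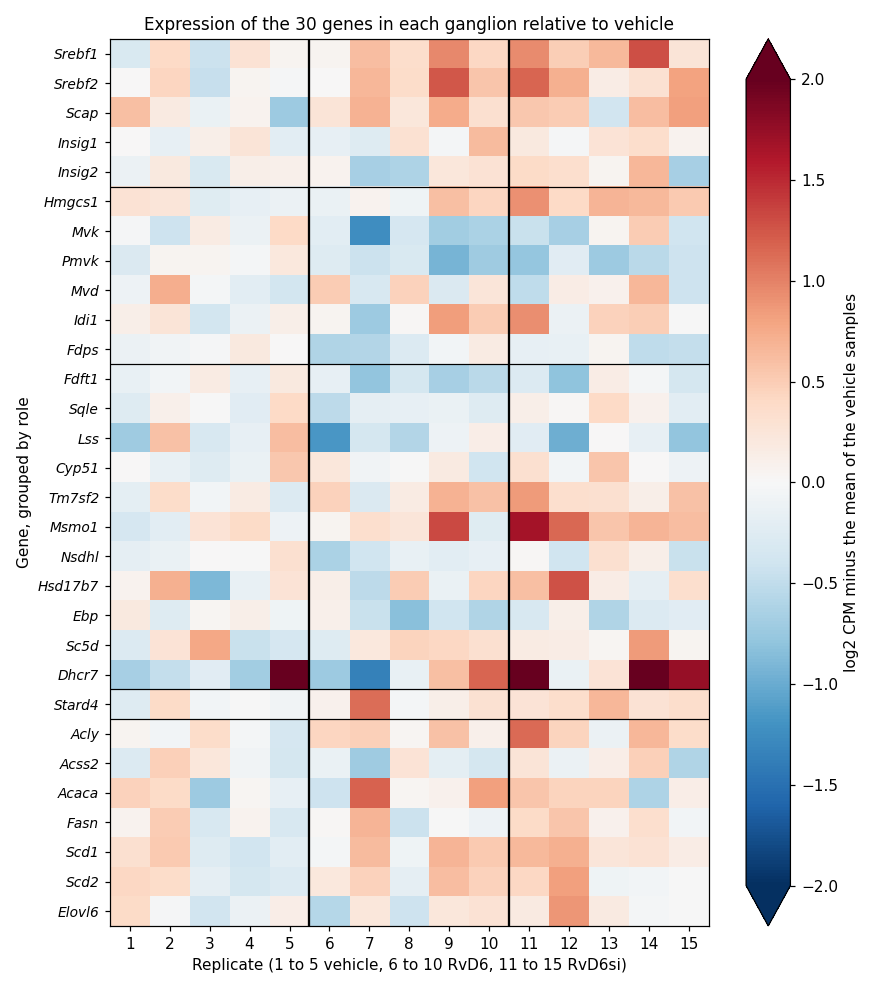
Log2 CPM of each of the 30 genes in each ganglion minus the mean of the vehicle samples (red above, blue below, colours end at 2 on either side), genes grouped by role. Srebf1, Hmgcs1 and Msmo1 are red in all 5 RvD6si columns and Pmvk is blue in them. Srebf2, Tm7sf2, Stard4, Scd1 and Sc5d also lie above the vehicle mean in all 5, in part by little. Dhcr7 is strongly red in vehicle replicate 5 and in RvD6si replicates 11, 14 and 15.

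Of 25 other genes of sterol and fatty acid handling listed, 24 were found and tested, and edgeR called 0 in each comparison (0.670%, 0% and 0.235% of all genes under RvD6si, under RvD6 and between the lipids). Under RvD6si, 3 were higher and 3 lower at an unadjusted p below 0.05, where 8.69% and 7.30% of all genes were. The log2 fold change was above 0 in 15 of 24 (62.5%, against 51.2% of all genes), with a median of 0.06 against 0.02. The 3 smallest p-values were those of Mbtps1, the Golgi protease that makes the first SREBP cut, at 0.74 ± 0.22 (edgeR adjusted p = 0.110, DESeq2 adjusted p = 0.0243), Elovl1, an elongase of very long fatty acids, at -0.63 ± 0.19 (edgeR adjusted p = 0.117, DESeq2 adjusted p = 0.0294), and Tecr, a reductase of fatty acid elongation, at -0.39 ± 0.14 (edgeR adjusted p = 0.156). DESeq2 called the first 2 of the 24, where it called 8.13% of all the genes it adjusted.

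Under RvD6, 1 of the 24 was higher and 2 lower, where 7.63% and 5.99% of all genes were, and DESeq2 called 1, where it called 1.92%. The log2 fold change was above 0 in 16 of 24 (66.7%, against 52.2% of all genes), with a median of 0.21 against 0.02. The 3 smallest p-values were those of Lbr, a nuclear membrane sterol reductase, at 1.53 ± 0.38 (edgeR adjusted p = 0.125, DESeq2 adjusted p = 0.00965), Acat2, which makes acetoacetyl-CoA for the mevalonate route, at -0.48 ± 0.16 (edgeR adjusted p = 0.196), and Tecr at -0.40 ± 0.14 (edgeR adjusted p = 0.216). Lbr is also abundant in maturing granulocytes, and the granulocyte markers Ngp and S100a8 had log2 fold changes of 2.73 and 2.70 under RvD6, and the part of this in the Lbr value was not tested. Between the lipids 9 of the 24 were above 0 (37.5%, against 49.5% of all genes). At an unadjusted p below 0.05, 1 was higher and 1 lower, where 4.18% and 4.64% of all genes were. Elovl5, an elongase of polyunsaturated fatty acids, was at 0.40 ± 0.13, RvD6si against RvD6 (edgeR adjusted p = 0.320), Lbr was at -0.89 ± 0.37 (edgeR adjusted p = 0.490) and Acat2 at 0.31 ± 0.16 (edgeR adjusted p = 0.589).

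Gene length moved with the fold changes. Across the 16567 genes the Spearman correlation of the log2 fold change with exonic length was 0.290 under RvD6si, 0.246 under RvD6 and 0.0748 between the lipids, as a description over genes that share their libraries. The median exonic length of the 30 genes was 4998 bases, against 3968 over all genes tested. Single lengths ran from 1713 bases (Pmvk) to 17074 (Acaca), so some of the 30 were shorter than that median of all genes. With each sample's trend on length removed, the median under RvD6si was 0.13, with 5 genes higher and 3 lower at an unadjusted p below 0.05. Hmgcs1 and Msmo1 then stood at 0.51 and 0.82 under RvD6si, and Srebf1 and Srebf2 at 0.61 and 0.50. Pmvk, the shortest of the 30, moved from -0.53 to -0.35 under RvD6si and from -0.52 to -0.39 under RvD6. Exons shared with other genes are a further limit, since the counting did not use strand. They made up 26.7% of the exonic length of Fdps, 18.8% of Fdft1, 13.2% of Scap, 12.1% of Hmgcs1 (an antisense gene) and 12.1% of Tm7sf2.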

How the data were processed

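RNA of 15 right TG was sequenced by an adapted Smart-seq2 protocol without molecular identifiers, so copies made in amplification count as reads. Alignment by the authors used Rsubread and GRCm38 (GENCODE release M22). They deposited whole-number raw counts per gene from featureCounts, whose version is 1.5.0-p1 per the file headers and Subread 1.6.5, with R 3.6.1, in the processing notes. Default options leave strand unused, and reads with several places or genes uncounted. The deposited table also gives exonic length in bases (used as another quantity for TPM). Gene symbols and positions came from GENCODE M21 on the same genome (99.7% of identifiers named). Promoters came from RefSeq.

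Groups follow the treatment labels. The test was the edgeR 4.0.16 quasi-likelihood F test in R 4.3.3, all 15 samples in 1 fit, TMM factors, filterByExpr (minimum count 10, total 15), Benjamini-Hochberg adjustment over the 16567 genes and a threshold of 0.05. Standard errors are the log2 fold change over the square root of F. Normalized counts are counts divided by DESeq2 1.42.0 size factors. The exact permutation test used all splits of 5 against 5 samples, with no adjustment. Copies were found with blastn 2.17.0 (95% identity over 75 bases). The test script was tested on simulated data.

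All 30 genes are named, and sample values are given for genes with an unadjusted p below 0.05 in any comparison (at most the 8 smallest p-values each) and for Insig1, Srebf2, Srebf1, Hmgcs1, Sqle, Acaca, Fasn and Scd2. Of related genes, those called or with the 3 smallest p-values are named. The genes, lists and rules were chosen with earlier results of these data known. Alternatives were DESeq2, edgeR on 2 groups, RLE factors, 2 other filters, removal of the length trend (lowess, span 0.3) or of the 10 most counted genes, and each sample left out. Leaving out RvD6 replicates 8 and 9 together was added after seeing the data. P-values measure the spread between ganglia, for which no pooling is stated. Faxdc2, listed among related genes, was not analysed here.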

Additional observations from a re-analysis of the deposited data

Results flagged for a closer look

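Of 45 sets of 5 normalized counts (15 genes in 3 groups), 2 held a sample far from the other 4, and chance alone gives about 1 in 20 such sets. The Msmo1 count of RvD6 replicate 9 was 1397, with the nearest RvD6 sample at 716, a gap of 0.738 of the whole range. The same library held the highest skeletal muscle count of the RvD6 group. The Dhcr7 count of vehicle replicate 5 was 429, with the nearest vehicle sample at 87.5, a gap of 0.931 of the range. Dhcr7 also reached 718, 528 and 346 in RvD6si replicates 11, 14 and 15, against 94.3 and 122 in replicates 12 and 13.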

How the results depend on the processing

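No paired analysis was possible because the replicate numbers run from 1 to 15 and none is shared between groups. Among the 30 genes edgeR called 0 in each comparison, and this count changed only under RvD6si against vehicle, where it was 4 with DESeq2, 1 with edgeR on the 2 groups alone (Hmgcs1, adjusted p = 0.0480), 2 with at least 10 counts in every sample (Hmgcs1, adjusted p = 0.0389, and Msmo1, adjusted p = 0.0454) and 0 to 2 with samples left out in turn (2 without RvD6 replicate 9). Over the whole table the calls under RvD6si also rose in these settings, from 111 to 920 with DESeq2 and 152 on the 2 groups alone. They were 315 with at least 10 counts in every sample and 229 without RvD6 replicate 9. Of the related genes DESeq2 called 2 under RvD6si and 1 under RvD6, where edgeR called 0. The number at an unadjusted p below 0.05 ran from 4 to 10 (RvD6si, 7 with all samples), from 3 to 8 (RvD6, 6 with all samples) and from 3 to 5 (between the lipids, 3 with all samples) with samples left out, and between the lipids it was 5 with no filter. The list medians kept their sign under every alternative run, and none moved by more than the SD of the vehicle sample medians (0.13). That SD is larger than the RvD6 median of 0.08, so this measure cannot show that the RvD6 median is stable. Single fold changes were followed through all alternatives only for the genes whose sample values are given. Among those genes the sign turned only for values near 0 or resting on single samples. Under RvD6si, Sqle was at -0.0535 with the length trend removed and -0.00989 to 0.20 with samples left out. Under RvD6, Fasn was at -0.12 with the length trend removed and -0.16 to 0.19 with samples left out, Insig1 ran from -0.0385 to 0.20 and Dhcr7 from -0.73 to 0.68. Between the lipids, Pmvk was at 0.00374 on the 2 groups alone, 0.0165 with no filter, 0.0391 with the length trend removed and -0.10 to 0.0681 with samples left out, and Srebf2 ran from -0.11 to 0.26, Insig1 from -0.0318 to 0.21, Acaca from -0.36 to 0.0519 and Scd2 from -0.26 to 0.00937. The cause of these shifts was not tested. Another 9 values in the same direction passed the threshold under an alternative (Srebf1, Hmgcs1, Pmvk and Msmo1 under RvD6si). Removing the 10 most counted genes raised the vehicle TPM of all 30 genes by 1.24 to 1.25 times. All 111 calls over the whole table under RvD6si were lost without RvD6si replicate 11, where edgeR called 0. Most were also lost without other single samples. With each vehicle sample left out in turn edgeR called 6 to 13, and without RvD6si replicate 14 it called 9. Leaving out any other single sample gave 68 to 229 calls. Depth limits the low genes most, since Fdps and Dhcr7 fell to 27 and 44 reads in a sample.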
